A study of Mus musculus with 4 samples.

Results

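The genes described here encode the granule proteins, cytosolic proteins and receptors of neutrophils, together with a factor of their maturation. The list holds 34 genes, of the 22911 genes that the arrays name, and was drawn up with earlier results of these data known. In particular, genotype differences of S100a8, S100a9, Lcn2, Chil1, Stfa2l1, Wfdc21, Mrgpra2b, Asprv1, Sprr1a and Lyz2 had been seen before, so the values below describe the list and are no independent evidence of its direction. A probe was found for 33 members through its RefSeq accession, and none for Olfm4, a specific granule gene. Each member was read from its brightest probe.

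Expression was measured on Agilent 1-colour arrays, which report the brightness of Cy3-labelled RNA bound to each probe. The 4 groups were LysM-St18flox cells after 3 h of lipopolysaccharide (LPS, a bacterial outer membrane component sensed by Toll-like receptor 4), LysM-St18flox cells at 0 h, wild-type cells after 3 h of LPS and wild-type cells at 0 h, with 1 array in each. All cells came from the peritoneal lavage of mice given 4% thioglycollate, an irritant that recruits leukocytes, and are labelled peritoneal macrophages, with PEC in the sample titles. LysM names the lysozyme gene Lyz2, itself a member of the list, whose regulatory sequence serves in other mouse lines to express Cre recombinase in macrophages and neutrophils alike. St18 is a zinc finger transcription factor gene. Each sample is labelled as coming from a mouse of its genotype. The labels give no age, sex, strain or LPS dose, do not say whether 0 h and 3 h cells came from the same animal, and do not name the Cre allele or the floxed part of St18.

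With 1 array per group there is no replicate error, no p-value was computed, and every difference below is between single arrays. Values are normalized log2 signals, that is, the log2 signal minus the array's 75th percentile, and a difference of 1 is 2-fold. Between 52.2% and 55.6% of the spots of an array were well above background, and none was saturated. Replicate spots of the same probe spread with a median SD of 0.033 to 0.042 (log2), which covers spot error only. Among probes of the same gene, the wild-type 0 h array stood apart: its values departed from the gene's other probes with an SD of 0.280, against 0.163 to 0.172 on the other 3 arrays. This array enters the genotype difference at 0 h and the LPS response in wild-type cells, while the genotype difference at 3 h and the LPS response in LysM-St18flox cells do not use it. The St18 probe that was well above background in wild-type cells was not well above it in LysM-St18flox cells. Its LysM-St18flox signal was lower than the wild-type signal by a factor of at least 8.48 at 3 h and at least 7.12 at 0 h. The other St18 probe was dim on all 4 arrays, and a probe outside the altered part of the gene would check nothing.

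Neutrophils make their granules in order as they mature in the bone marrow. Primary granules, with myeloperoxidase and serine proteases, are filled first, specific granules with lactoferrin and cathelicidin next, and gelatinase granules last. The granule transcripts have largely been shut off by the time a neutrophil reaches the tissue, whereas mRNAs of the S100 proteins, of chemokine and formyl peptide receptors and, in mice, of the stefins stay abundant. Several members, among them Lyz2, Anxa1, Fpr1, Fpr2, Trem1, Lcn2 and Mmp9, are also transcribed in macrophages. In these bulk samples, fewer cells of a type and less RNA per cell cannot be told apart.

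In LysM-St18flox cells, S100a8, S100a9, the stefin genes Stfa2 and Stfa2l1 and the receptor genes Trem1 and Mrgpra2b were more than 2-fold lower at both times. The measured primary granule genes and the specific granule genes Ltf, Camp and Mmp8 differed by less than 2-fold, whereas the specific granule genes Lcn2 and Chil1 were lower. Mpo, Prtn3, Ltf and Camp had low signals, between -3.51 and -1.86. The lowest value well above background on an array lay between -4.20 and -3.64. The resistin-like gene Retnlg was higher in LysM-St18flox cells at both times, 2.16-fold at 3 h and 1.74-fold at 0 h. With LPS, Lcn2, Fpr1, Fpr2 and Mrgpra2b were between 5.41-fold and 27.0-fold higher in both genotypes. Lcn2 and Mrgpra2b were also among the genes lower by genotype at both times.

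Of the 33 members with a probe, 25 were well above background on all 4 arrays. A further 7 (Ctsg, Chil1, Cd177, Stfa1, Cxcr2, Trem3 and Wfdc21) were above it on some arrays only, and Ngp, which encodes neutrophilic granule protein, on none. A member that is above background only on the arrays where it is bright had to differ, so such genes are given as bounds. For some genes below, both arrays of a genotype lay on the same side of both arrays of the other. The share of all genes that split this way is not given here, and the 0 h and 3 h arrays are not replicates of a genotype.

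**Figure D1:**
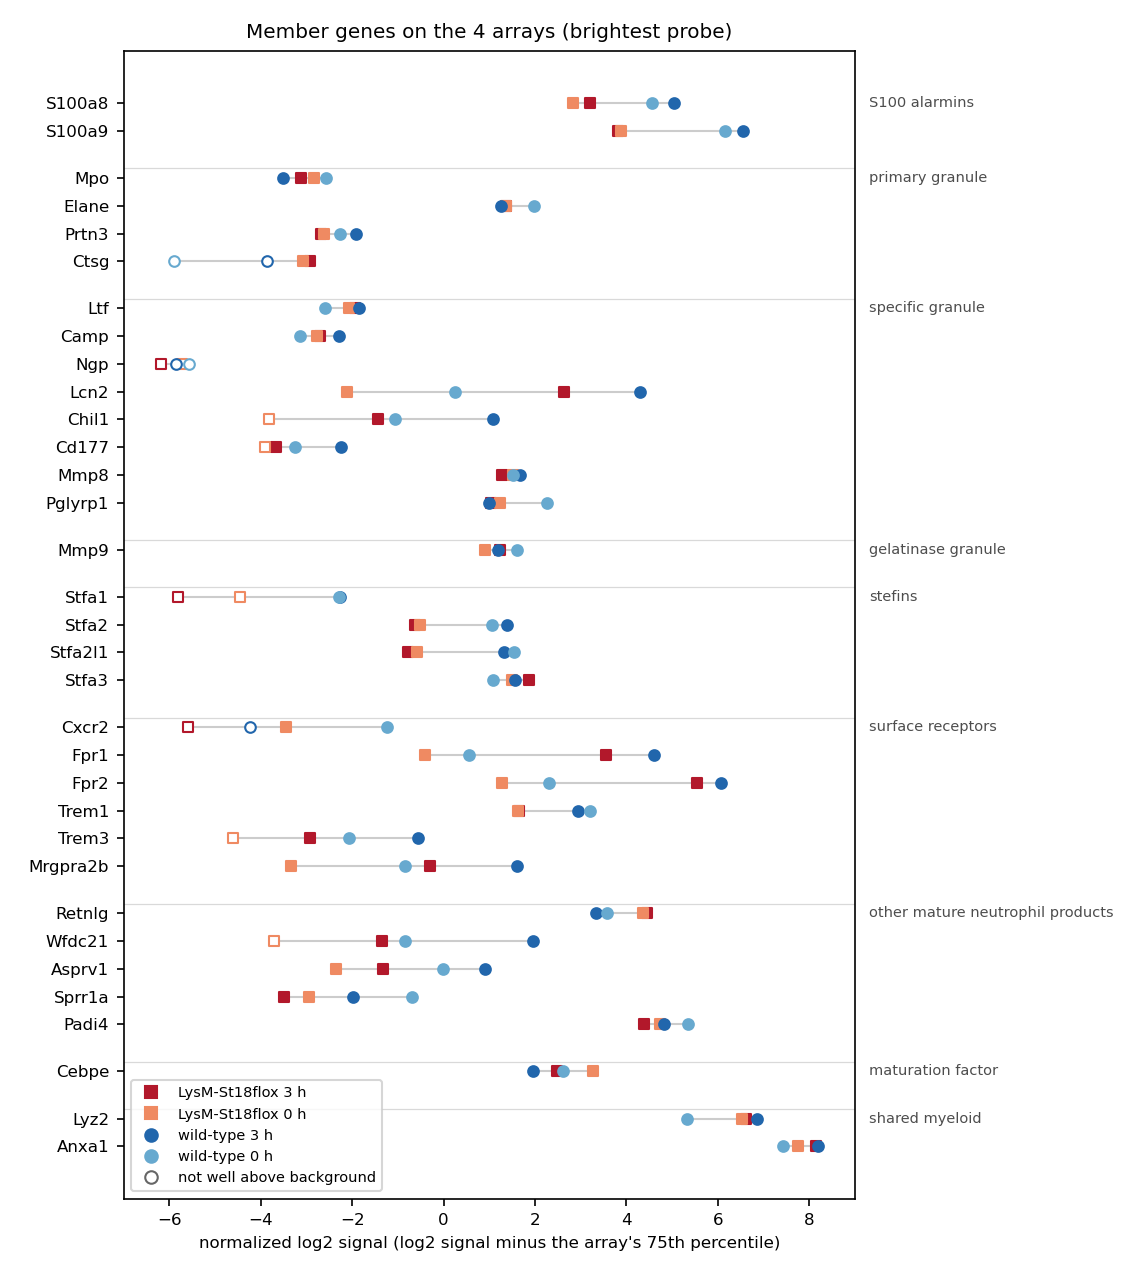
Normalized log2 signal (x axis) of the 33 member genes with a probe (rows, grouped by role) on the 4 arrays, with squares for LysM-St18flox and circles for wild-type cells and open symbols where the probe was not well above background. The squares of S100a8, S100a9, Stfa2, Stfa2l1 and Trem1 lie left of both circles, those of Retnlg lie right of both, and those of Ngp are all open.

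S100a8 and S100a9 encode the subunits of calprotectin, the calcium- and zinc-binding protein that makes up much of the neutrophil cytosol. S100a9 had a signal of 3.82 at 3 h and 3.88 at 0 h in LysM-St18flox cells, against 6.56 at 3 h and 6.15 at 0 h in wild-type cells. S100a8 had 3.21 and 2.82 in LysM-St18flox cells at 3 h and 0 h, against 5.05 and 4.56 in wild-type cells. For both genes the 2 wild-type arrays lay above the 2 LysM-St18flox arrays. S100a9 was 6.69-fold lower at 3 h and 4.80-fold lower at 0 h, and S100a8 3.58-fold and 3.34-fold lower. Neither gene reached a 2-fold difference with LPS in either genotype: S100a9 differed by -0.06 in LysM-St18flox cells and 0.42 in wild-type cells, and S100a8 by 0.40 and 0.49.

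The genes lie near each other on chromosome 3, and their promoters are shown because they had the same direction at both times. Each sequence holds the 250 bases before the RefSeq start site, 5′ to 3′ on the gene's strand (GRCm38.p6, chr3:90668821-90669070 on the plus strand for S100a8 and chr3:90695722-90695971 on the minus strand for S100a9). Capitals mark GAGGAAGT, an ETS motif of the kind bound by PU.1, read on the opposite strand in S100a8, and TTGCNNAA, a C/EBP motif, in S100a9.
S100a8: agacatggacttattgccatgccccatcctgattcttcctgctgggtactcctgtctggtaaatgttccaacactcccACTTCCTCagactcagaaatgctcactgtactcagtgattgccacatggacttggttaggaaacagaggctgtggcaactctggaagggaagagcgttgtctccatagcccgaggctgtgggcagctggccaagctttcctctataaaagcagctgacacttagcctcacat
S100a9: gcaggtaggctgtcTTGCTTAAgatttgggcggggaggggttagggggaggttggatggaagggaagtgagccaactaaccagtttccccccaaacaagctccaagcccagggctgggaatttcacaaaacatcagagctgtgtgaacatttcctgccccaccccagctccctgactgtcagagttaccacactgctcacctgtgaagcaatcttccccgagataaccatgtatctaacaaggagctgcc
The ETS match of S100a8 starts at -172 and the C/EBP match of S100a9 at -236, counted from the start site.

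The measured primary granule genes differed by less than 2-fold between genotypes. Elane, neutrophil elastase, had 1.37 at 3 h and 1.36 at 0 h in LysM-St18flox cells, against 1.25 and 1.98 in wild-type cells. Mpo, myeloperoxidase, had -3.13 and -2.83 in LysM-St18flox cells, against -3.51 and -2.58 in wild-type cells. The groups overlapped for both genes. Prtn3, proteinase 3, had -2.68 at 3 h and -2.61 at 0 h in LysM-St18flox cells, against -1.91 and -2.27 in wild-type cells, and did not overlap. The genotype difference was 0.12 for Elane, 0.37 for Mpo and -0.78 for Prtn3 at 3 h, and -0.62, -0.24 and -0.34 at 0 h. Ctsg, cathepsin G, was above background only in LysM-St18flox cells, where it had -2.93 at 3 h and -3.08 at 0 h, with a lower bound of 1.91-fold at 3 h and 1.47-fold at 0 h on how much higher it was. None of the primary granule genes measured reached 2-fold with LPS, and their largest difference was that of Mpo in wild-type cells at -0.92.

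The specific granule genes fell into separate behaviours. Ltf (lactoferrin), Camp (cathelicidin) and Mmp8 (neutrophil collagenase) stayed within 2-fold in all 4 comparisons, except that Camp with LPS in wild-type cells was 0.86 here and 1.03 in the authors' deposited table. Ltf had -1.95 at 3 h and -2.07 at 0 h in LysM-St18flox cells, against -1.86 and -2.59 in wild-type cells, and Camp had -2.71 and -2.77, against -2.28 and -3.14. For both, the wild-type 0 h array was the lowest and the wild-type 3 h array the highest. Mmp8 ranged from 1.27 to 1.68 over the 4 arrays. Ngp lay between -6.18 and -5.58 and was never well above background.

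Lcn2, Chil1 and Cd177 were lower in the LysM-St18flox samples. Lcn2 encodes lipocalin 2, which withholds iron from bacteria by binding their siderophores. It had 2.63 at 3 h and -2.12 at 0 h in LysM-St18flox cells, against 4.30 at 3 h and 0.25 at 0 h in wild-type cells. At each time the LysM-St18flox array was the lower, by 3.17-fold at 3 h and 5.19-fold at 0 h. A second, dimmer Lcn2 probe differed by -1.91 at 3 h and was not well above background at LysM-St18flox 0 h. Chil1, a chitinase-like glycoprotein gene, had -1.44 at 3 h in LysM-St18flox cells, against 1.08 in wild-type cells (5.77-fold lower). At 0 h it was not above background in LysM-St18flox cells, with a bound of at least 5.94-fold lower. Cd177, which encodes a surface glycoprotein of neutrophils, was 2.68-fold lower at 3 h. Its signals of -3.67 in LysM-St18flox cells and -2.25 in wild-type cells were low, and its difference was -0.78 with normexp background correction.

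Pglyrp1, a peptidoglycan recognition protein gene, had 1.03 at 3 h and 1.23 at 0 h in LysM-St18flox cells, against 2.25 at 0 h in wild-type cells, whose 3 h value was 0.04 below that of LysM-St18flox cells at 3 h. Only the wild-type 0 h array was set apart, and both its 2-fold differences rest on that array: 2.02-fold lower by genotype at 0 h, and 2.38-fold lower with LPS in wild-type cells. Mmp9, the gelatinase B gene, differed between genotypes by 0.04 at 3 h and -0.70 at 0 h, and its second probe by -0.31 and -0.58.

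Stefins are cytosolic inhibitors of cathepsins, and the mouse has a cluster of near-identical stefin A genes on chromosome 16. Stfa2 had -0.62 at 3 h and -0.52 at 0 h in LysM-St18flox cells, against 1.38 and 1.06 in wild-type cells. Stfa2l1 had -0.77 and -0.59 in LysM-St18flox cells, against 1.31 and 1.53 in wild-type cells. Stfa2 was 3.99-fold lower at 3 h and 2.98-fold lower at 0 h, and Stfa2l1 4.22-fold and 4.34-fold lower. Stfa1 was above background in wild-type cells only (-2.26 at 3 h and -2.29 at 0 h), and the LysM-St18flox signal was lower by a factor of at least 3.83 at 3 h and 2.56 at 0 h. Stfa3 went the other way by a small amount, with 1.87 and 1.50 in LysM-St18flox cells, against 1.55 and 1.09 in wild-type cells (differences of 0.33 and 0.41). No measured stefin gene differed by 2-fold with LPS. Such near-identical genes can share signal on an array, and whether a probe of one stefin also reads another was not tested.

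The promoters of the stefin genes are shown because Stfa3 differed in direction from its relatives (GRCm38.p6, chr16:36276898-36277147 plus strand for Stfa1, chr16:36408364-36408613 minus strand for Stfa2, chr16:36156561-36156810 plus strand for Stfa2l1 and chr16:36455393-36455642 minus strand for Stfa3). Capitals mark TTGCNNAA in Stfa1 and the looser C/EBP motif TTNNGNAA, read on the opposite strand, in Stfa2 and Stfa2l1. Stfa3 holds neither.
Stfa1: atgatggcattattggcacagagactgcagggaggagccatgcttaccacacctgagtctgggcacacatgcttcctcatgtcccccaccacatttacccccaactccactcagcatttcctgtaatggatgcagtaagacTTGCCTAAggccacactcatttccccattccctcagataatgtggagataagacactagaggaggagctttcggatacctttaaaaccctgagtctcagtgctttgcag
Stfa2: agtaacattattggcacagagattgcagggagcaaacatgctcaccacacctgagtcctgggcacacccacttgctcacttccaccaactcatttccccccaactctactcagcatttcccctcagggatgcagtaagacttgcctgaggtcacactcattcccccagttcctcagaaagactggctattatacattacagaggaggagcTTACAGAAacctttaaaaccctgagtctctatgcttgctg
Stfa2l1: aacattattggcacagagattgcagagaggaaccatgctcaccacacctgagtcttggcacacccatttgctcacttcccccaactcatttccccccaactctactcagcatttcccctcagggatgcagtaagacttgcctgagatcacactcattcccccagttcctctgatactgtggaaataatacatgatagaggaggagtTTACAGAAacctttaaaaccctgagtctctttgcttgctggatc
Stfa3: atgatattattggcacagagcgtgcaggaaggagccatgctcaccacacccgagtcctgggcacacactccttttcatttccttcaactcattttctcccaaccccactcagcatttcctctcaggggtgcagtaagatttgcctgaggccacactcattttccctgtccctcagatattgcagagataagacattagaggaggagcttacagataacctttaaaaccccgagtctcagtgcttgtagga
Aligned end to end, the promoters of Stfa2 and Stfa2l1 were 89.4% identical, and those of Stfa3 80.4% identical to Stfa2, 80.5% to Stfa2l1 and 83.5% to Stfa1. For the 325 pairs among the other members' promoters the median was 48.7% and the highest value 55.1%. Stfa3 was thus about as close in sequence to the stefins that were lower as those were to Stfa1.

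All 5 receptor genes measured at 3 h and all 5 measured at 0 h had lower signals in LysM-St18flox samples, by different amounts. The sets differ, as Cxcr2 was not measured at 3 h and Trem3 not at 0 h. The share of all genes below 0 is not given here, and the medians over all genes were -0.01 at 3 h and -0.04 at 0 h. The difference of Mrgpra2b had been seen before, so the count only describes the list. Mrgpra2b, a Mas-related G protein-coupled receptor gene expressed in mouse neutrophils, had -0.31 at 3 h and -3.33 at 0 h in LysM-St18flox cells, against 1.60 and -0.84 in wild-type cells (3.74-fold lower at 3 h and 5.62-fold at 0 h). A close paralogue exists, so its signal may be shared. The Mrgpra2b value at LysM-St18flox 0 h was near the lowest value well above background on that array, -3.64. Over the main and alternative settings the log2 difference of Mrgpra2b at 0 h lay between -2.62 and -1.68. Trem1, which encodes an activating receptor that amplifies inflammatory signals, had 1.64 and 1.63 in LysM-St18flox cells, against 2.93 and 3.21 in wild-type cells (2.45-fold and 3.00-fold lower). Its second probe gave -1.97 at 3 h and -1.17 at 0 h. Trem3, a related receptor gene of mice, was 5.14-fold lower at 3 h (-2.92 in LysM-St18flox cells, against -0.56 in wild-type cells) and at least 2.97-fold lower at 0 h.

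Fpr1 and Fpr2 encode receptors for formylated bacterial peptides. Fpr1 had 3.56 at 3 h and -0.41 at 0 h in LysM-St18flox cells, against 4.61 and 0.56 in wild-type cells. Fpr2 had 5.55 and 1.28 in LysM-St18flox cells, against 6.07 and 2.31 in wild-type cells. Time set these values apart more than genotype did. The genotype difference of Fpr1 was 2.06-fold lower at 3 h and 1.97-fold at 0 h, and that of Fpr2 1.43-fold and 2.05-fold. Cxcr2, the receptor for the neutrophil chemokines of the CXC family, was above background at 0 h only, with -3.45 in LysM-St18flox cells, against -1.23 in wild-type cells (4.68-fold lower). The LysM-St18flox value was near the lowest value well above background on that array, -3.64. Over the main and alternative settings the log2 difference of Cxcr2 lay between -2.36 and -1.42.

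Among other products of mature neutrophils, Wfdc21, a small secreted WAP domain protein gene, showed the largest difference. At 3 h it had -1.36 in LysM-St18flox cells, against 1.96 in wild-type cells, a 9.98-fold lower signal. At 0 h it was not above background in LysM-St18flox cells, against -0.85 in wild-type cells (at least 6.94-fold lower). Asprv1, a retroviral-like protease gene known from skin and neutrophils, had -1.32 at 3 h and -2.35 at 0 h in LysM-St18flox cells, against 0.90 and -0.02 in wild-type cells (4.66-fold and 5.01-fold lower). Sprr1a, a cornified envelope precursor gene, was 2.86-fold lower at 3 h and 4.77-fold lower at 0 h. At 3 h it had -3.49 in LysM-St18flox cells, against -1.98 in wild-type cells, and its difference of -1.51 was -0.72 with normexp background correction.

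Retnlg, which encodes resistin-like gamma, was the only measured member at least 2-fold higher by genotype at 3 h. It had 4.44 at 3 h and 4.37 at 0 h in LysM-St18flox cells, against 3.33 and 3.57 in wild-type cells. Both LysM-St18flox arrays were above both wild-type arrays. The difference of 1.11 at 3 h lay between 1.07 and 1.16, and that of 0.80 at 0 h between 0.67 and 0.88, over the main and alternative settings. Padi4, the enzyme gene for histone citrullination in extracellular traps, differed by -0.43 at 3 h and -0.61 at 0 h, and its second probe by -0.10 and 0.84, so its direction at 0 h depended on the probe. Cebpe encodes the C/EBP factor needed for specific granule genes in maturing neutrophils. It had 2.47 and 3.27 in LysM-St18flox cells, against 1.95 and 2.60 in wild-type cells, differences of 0.52 at 3 h and 0.67 at 0 h.

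Lyz2 and Anxa1 are strongly expressed by macrophages too. Lyz2, lysozyme, had 6.61 and 6.52 in LysM-St18flox cells, against 6.85 and 5.33 in wild-type cells, and only the wild-type 0 h array was low. Between genotypes it differed by -0.23 at 3 h and by 1.19 at 0 h. Anxa1, whose product annexin A1 signals through formyl peptide receptors, had 8.15 ± 0.087 (SD, 9 spots) at 3 h and 7.75 ± 0.054 (SD, 10 spots) at 0 h in LysM-St18flox cells, against 8.20 ± 0.057 (SD, 10 spots) and 7.42 ± 0.037 (SD, 8 spots) in wild-type cells. These errors cover spots of 1 array only. Its second probe differed by 0.12 at 3 h and 0.16 at 0 h between genotypes.

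Counted over the list, 14 of 29 measured members were lower by 2-fold or more at 3 h in LysM-St18flox samples and 1 was higher, with a median of -0.78. Of all 13048 genes measured there, 1.40% were at least 2-fold lower and 1.81% higher, with a median of -0.01. At 0 h, 12 of 26 measured members were at least 2-fold lower and 1 higher (median -0.84), against 3.15% lower and 2.98% higher of 12676 genes (median -0.04). As the choice of members used this contrast, nothing further is read from these counts. The 2 genotype comparisons share no array, but the labels do not say whether they share animals. Of 25 members measured in both, 9 were at least 2-fold lower in both and none was 2-fold higher in both. Over 12344 genes these shares were 0.454% and 0.834%. The 9 were Asprv1, Lcn2, Mrgpra2b, S100a8, S100a9, Sprr1a, Stfa2, Stfa2l1 and Trem1. Most of them had been seen to differ before, so this count too only describes the list.

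**Figure D2:**
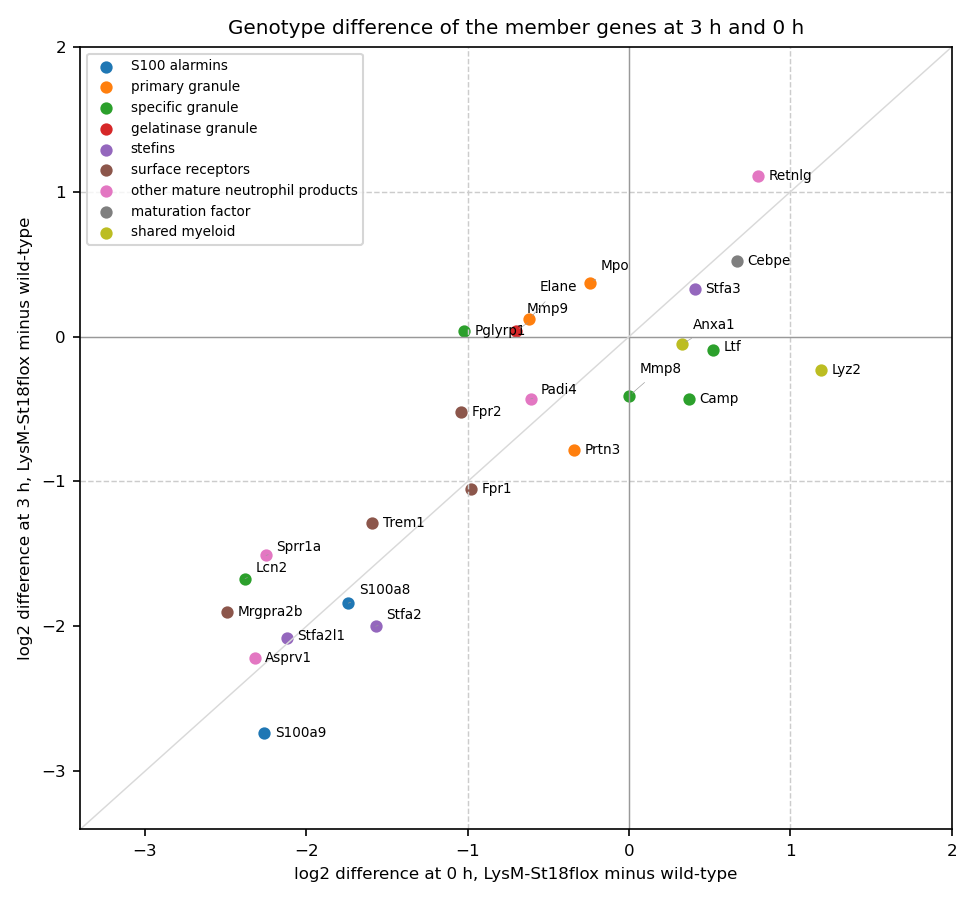
Log2 difference between LysM-St18flox and wild-type cells at 3 h (y axis) and at 0 h (x axis) for the 25 members measured on all 4 arrays, coloured by role, with dashed lines at 2-fold and a diagonal of equal values. The 9 genes in the lower left corner beyond both dashed lines include both S100 genes and the stefins Stfa2 and Stfa2l1, and Retnlg, Cebpe and Stfa3 lie above 0 on both axes.

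Each LPS response compares 3 h with 0 h within a genotype. Lcn2 was 27.0-fold higher in LysM-St18flox cells and 16.5-fold higher in wild-type cells. Fpr2 was 19.4-fold and 13.5-fold higher, and Fpr1 15.7-fold and 16.5-fold. Mrgpra2b was 8.11-fold higher in LysM-St18flox cells and 5.41-fold higher in wild-type cells. With its low LysM-St18flox 0 h signal, its log2 response there lay between 2.17 and 3.21 over the main and alternative settings. The second Fpr2 probe gave 4.15 in LysM-St18flox cells and 3.43 in wild-type cells (log2), close to its brightest probe at 4.28 and 3.76.

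Wfdc21 was at least 4.86-fold higher with LPS in LysM-St18flox cells and 6.99-fold higher in wild-type cells, and Chil1 at least 4.58-fold and 4.45-fold. Trem3 was higher by at least 1.64-fold in LysM-St18flox cells and by 2.85-fold in wild-type cells. Cxcr2 went the other way and was not above background at 3 h in either genotype, lower by at least 1.68-fold in LysM-St18flox cells and by at least 6.22-fold in wild-type cells. Asprv1 differed by 1.02 in LysM-St18flox cells and 0.92 in wild-type cells. For Trem1 the probes disagreed: the brightest gave 0.02 in LysM-St18flox cells and -0.28 in wild-type cells, and the second gave 1.31 and 2.11.

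In all, 5 of 26 measured members in LysM-St18flox samples were higher with LPS by 2-fold or more and none was lower (median 0.07), against 8.59% higher and 8.12% lower of all genes (median -0.05). In wild-type cells 9 of 30 were higher and 2 lower (median 0.44), against 9.46% and 10.9% (median -0.07). Chil1 and Wfdc21 are in the wild-type count only, as in LysM-St18flox cells they were bounds, also past 2-fold. The 2 lower genes were Pglyrp1 and Sprr1a. Lcn2, Fpr1, Fpr2 and Mrgpra2b were at least 2-fold higher in both genotypes, as were 6.47% of 12344 genes, and no member was 2-fold lower in both, against 5.69%. The LPS responses of both genotypes differed from each other by 2-fold or more for 2 of 25 members, Pglyrp1 (LysM-St18flox minus wild-type response 1.05) and Lyz2 (-1.42), against 3.01% higher and 2.36% lower over all genes. Both rest on the wild-type 0 h array.

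**Figure D3:**
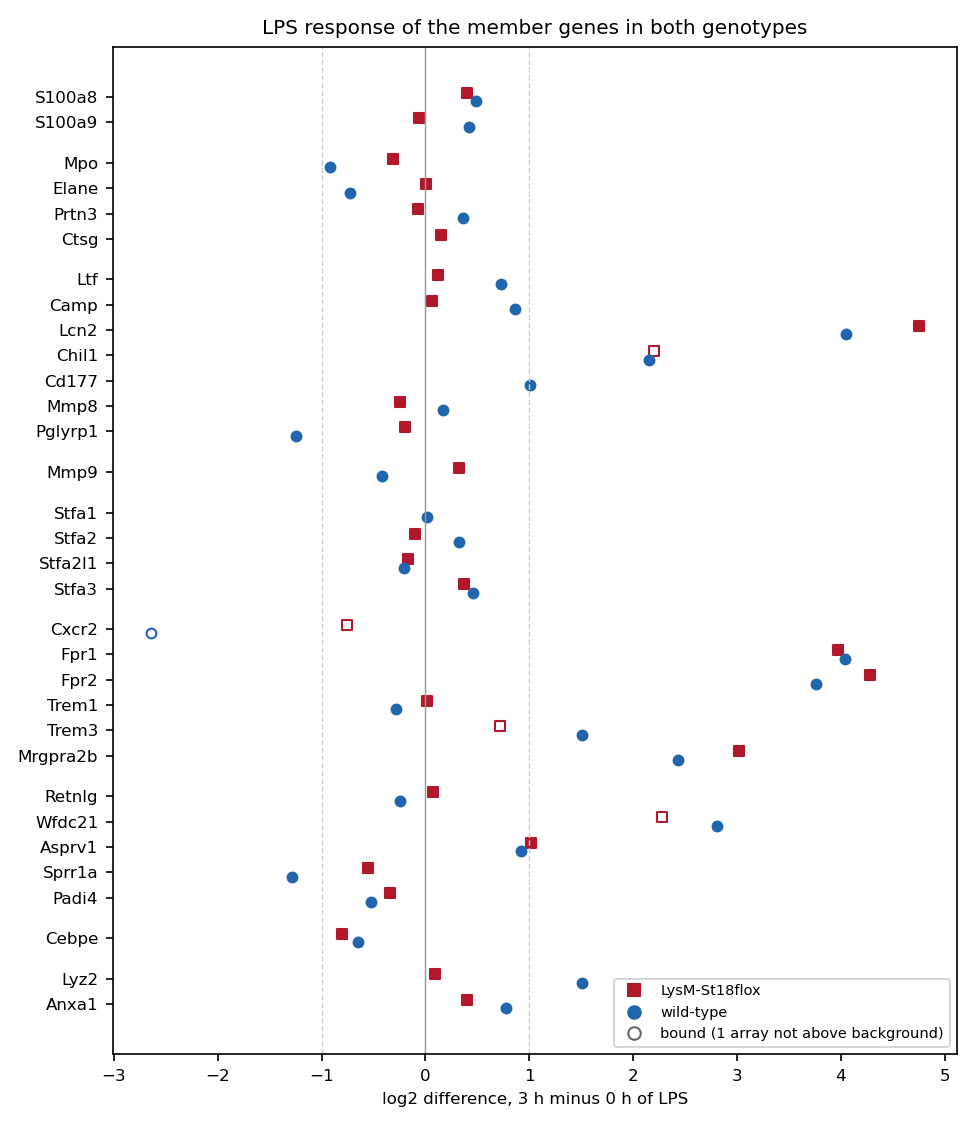
Log2 difference between 3 h and 0 h of LPS (x axis) for the members above background on at least 1 array (rows), in LysM-St18flox cells (squares) and wild-type cells (circles), with open symbols for bounds and dashed lines at 2-fold. Lcn2, Fpr1, Fpr2 and Mrgpra2b lie far to the right in both genotypes, Cxcr2 lies left of 0, and the S100, primary granule and stefin genes stay between the dashed lines.

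Lcn2 was lower and Retnlg higher at both times in LysM-St18flox samples, and both promoters hold the C/EBP motif TTGCNNAA, marked by capitals (GRCm38.p6, chr2:32387740-32387989 minus strand for Lcn2 and chr16:48872358-48872607 plus strand for Retnlg, where it is read on the opposite strand).
Lcn2: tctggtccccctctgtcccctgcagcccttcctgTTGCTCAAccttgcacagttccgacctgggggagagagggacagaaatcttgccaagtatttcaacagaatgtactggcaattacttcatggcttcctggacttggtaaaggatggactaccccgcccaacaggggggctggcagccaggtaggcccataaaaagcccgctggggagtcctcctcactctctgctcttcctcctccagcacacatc
Retnlg: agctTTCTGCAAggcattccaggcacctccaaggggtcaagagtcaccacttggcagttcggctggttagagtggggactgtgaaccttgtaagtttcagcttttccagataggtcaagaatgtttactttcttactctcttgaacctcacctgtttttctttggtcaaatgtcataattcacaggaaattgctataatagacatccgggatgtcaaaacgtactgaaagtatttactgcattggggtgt
Over the 30 members with a promoter in the RefSeq table, 6 motifs were searched on both strands in the 250 bases before the start site. TTGCNNAA was found in 8 members (26.7%), against 9.56% of all 32851 promoters, and TTNNGNAA, which includes every TTGCNNAA match, in 20 members (66.7%), against 36.8%. GAGGAAGT was found in 6 members (20%), namely the primary granule genes Elane, Mpo and Prtn3 and also Mmp8, Olfm4 and S100a8, against 2.44%. A consensus NF-kB motif was found in 7 members, against 17.6% of all promoters, the STAT motif TTCNNNGAA in 3, against 7.02%, and the AP-1 motif TGANTCA in 2, against 6.75%. The TTGCNNAA matches lay in genes that were lower in LysM-St18flox cells at both times (Lcn2, S100a9), in one that was higher (Retnlg) and in one within 2-fold (Ltf), among others. A match is a run of letters and not a binding site.

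Other neutrophil genes came from a list of 39 names that shares no gene with the members. It too was drawn up with earlier results of these data known, so it is no independent check. At 3 h, 5 of 29 measured were lower by 2-fold or more in LysM-St18flox samples and 1 was higher (median -0.15), against 1.40% lower and 1.81% higher of all genes. The lower genes were Cstdc4, a stefin-like gene, at -1.76, the acute-phase genes Hp (haptoglobin, -1.65) and Lrg1 (-1.45), the lipolysis inhibitor gene G0s2 (-1.85) and the chemokine gene Cxcl5 (-1.54), and Mmp25 was higher (1.39). At 0 h, Lrg1 (-1.77), Cstdc4 (-1.38) and Hp (-1.35) were lower of 26 measured (median -0.16), against 3.15% of all genes. G0s2 went the other way at 0 h (0.38). Its LysM-St18flox signal at 3 h was low, at -3.72, where the lowest value well above background was -4.20. Csf3r, the receptor for the neutrophil growth factor G-CSF, differed by -0.01 at 3 h and 0.68 at 0 h. Cxcr1, Itgb2l, Bpi, Ms4a3, Fcnb and Ceacam10, which mark neutrophils or their precursors, stayed below background on all 4 arrays.

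The phagocyte oxidase and adhesion genes, which neutrophils share with macrophages, had none of 12 members past 2-fold between genotypes at either time (medians -0.19 at 3 h and -0.22 at 0 h). Of all genes, 1.40% were lower and 1.81% higher at 3 h, and 3.15% lower and 2.98% higher at 0 h. A count of none among so few genes is near these shares, so nothing further is read from it. With LPS, 3 of 12 were higher in LysM-St18flox cells and 4 of 12 in wild-type cells, against 8.59% and 9.46% of all genes, led by Sod2, mitochondrial superoxide dismutase, at 3.07 and 3.01. Among granulocyte transcription factors, none of 10 was past 2-fold between genotypes at 3 h, which is also near the shares of all genes. At 0 h Lef1 and Myb, also lymphoid and progenitor genes, were higher of 8 measured, against 2.98% of all genes. Of this list, LPS gave 2 genes higher and 1 lower of 9 measured in LysM-St18flox samples, where 8.59% of all genes were higher and 8.12% lower. In wild-type samples 3 were higher and 2 lower of 8, where 9.46% of all genes were higher and 10.9% lower. A list of chemokines and growth factors that act on neutrophils also held chemoattractant receptor genes and genes of leukotriene synthesis. Of its 14 genes, 4 were lower by 2-fold or more in LysM-St18flox cells at 3 h, against 1.40% of all genes. These were Cxcl5 (-1.54), Ppbp (-1.24), Csf3 (-1.10) and Cxcl3 (-1.06), and Cxcl5 is also on the list of other neutrophil genes. At 0 h Ppbp (-1.56) was lower of 10 measured, against 3.15% of all genes. With LPS, 4 of 10 were higher in LysM-St18flox cells and 6 of 12 in wild-type cells, against 8.59% and 9.46% of all genes. These counts are unlike, as Cxcl3 and Cxcl5 were not well above background at LysM-St18flox 0 h and entered the wild-type count only. In LysM-St18flox cells Cxcl3 had 5.24 at 3 h and -4.24 at 0 h, and Cxcl5 -1.81 and -5.70. Csf3 was left out of both counts for the same reason. The LPS response of Cxcl1 was 7.85 in LysM-St18flox cells and 8.07 in wild-type cells, and that of Cxcl2 6.37 and 7.06.

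Markers of other cells moved beside the members. The members' summed signal without Lyz2 and Anxa1, in units of the array's 75th percentile, was 157 at 3 h and 101 at 0 h in LysM-St18flox cells, against 320 at 3 h and 196 at 0 h in wild-type cells. S100a8 and S100a9, whose difference had been seen before, carried much of this gap. Without them the sums of the remaining 29 genes were 134 and 78.8 in LysM-St18flox cells, against 192 and 102 in wild-type cells. These sums still hold other genes whose difference had been seen before, namely Lcn2, Chil1, Stfa2l1, Wfdc21, Mrgpra2b, Asprv1 and Sprr1a. All 16 macrophage markers were above background on every array, none differed by 2-fold between genotypes, and their medians were -0.08 at 3 h and -0.27 at 0 h. The 10 B cell markers summed to 28.1 and 34.2 in LysM-St18flox cells, against 4.71 and 5.87 in wild-type cells, and the 8 erythroid markers with a probe to 141 and 116 in LysM-St18flox cells, against 14.2 and 16.0 in wild-type cells. LysM-St18flox samples were higher by 2-fold or more for 7 of 8 measured B cell markers at 3 h and 8 of 8 at 0 h, and for 5 of 5 and 4 of 4 erythroid markers. Beside these and the marker counts below stand the shares of all genes. They were 1.81% higher and 1.40% lower at 3 h, and 2.98% higher and 3.15% lower at 0 h.

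Mesothelial and fibroblast markers went the way of the S100 genes, with 7.06 and 8.76 in LysM-St18flox cells, against 19.8 and 18.5 in wild-type cells, and 8 of 10 measured at 3 h and 6 of 9 at 0 h at least 2-fold lower. Eosinophil markers summed to 19.8 and 19.2 in LysM-St18flox cells, against 11.2 and 9.79 in wild-type cells, with 1 of 6 measured at least 2-fold higher at 3 h, 3 of 6 at 0 h, and the granule genes Epx and Prg2 below background on all 4 arrays. T and NK cell markers summed to 15.9 and 12.5 in LysM-St18flox cells, against 8.49 and 8.86 in wild-type cells, with 5 of 9 measured higher at 3 h, 3 of 7 higher and 1 lower at 0 h, and Cd8a and Ncr1 below background throughout. Monocyte markers gave 151 and 118 in LysM-St18flox cells, against 164 and 127 in wild-type cells, with Plac8 (1.25) and Ly6c2 (1.25) at least 2-fold higher at 3 h, and Plac8 higher (1.35) and Vcan lower (-1.80) at 0 h.

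Mast cell markers summed to 25.8 and 13.5 in LysM-St18flox cells, against 23.4 and 7.33 in wild-type cells. Much of the 3 h sums came from Hdc, histidine decarboxylase, which is also on the list of other neutrophil genes and was higher with LPS (2.14 in LysM-St18flox cells and 2.28 in wild-type cells). Without Hdc the sums were 9.99 and 9.95 in LysM-St18flox cells, against 2.81 and 3.09 in wild-type cells. Of 6 measured mast cell markers, 4 were higher by 2-fold or more in LysM-St18flox samples at 3 h (Cma1 2.32, Cpa3 2.04, Mcpt4 1.53 and Tpsb2 1.50, median 1.51), and 3 were higher at 0 h (Cma1 2.52, Cpa3 2.23 and Mcpt4 1.34). Ms4a2 was below background on all 4 arrays. The part of these other cell types in the members' differences was not tested.

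**Figure D4:**
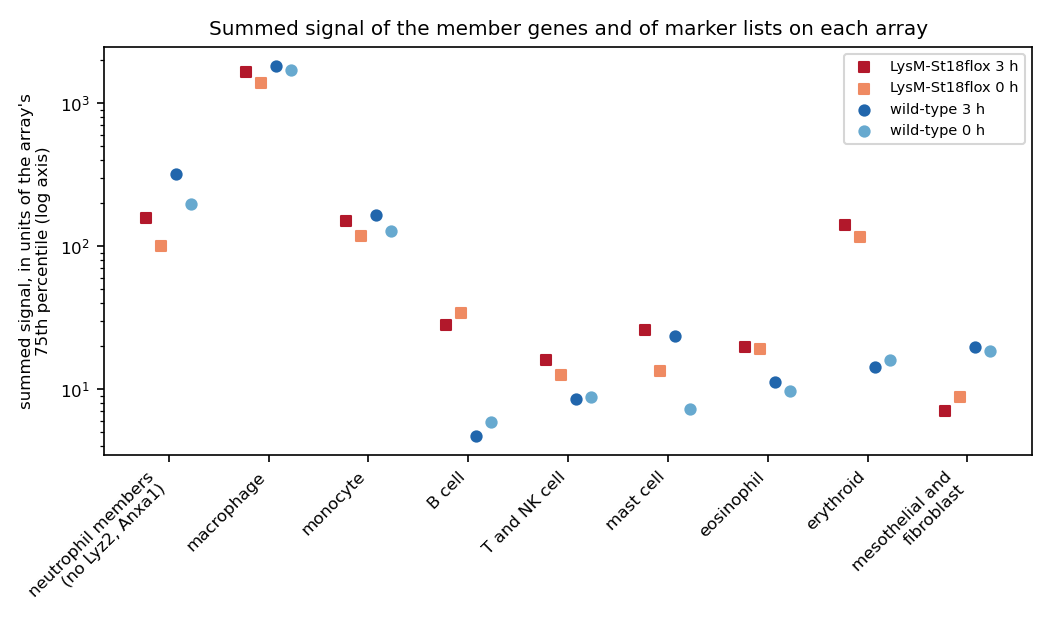
Summed signal of the member genes without Lyz2 and Anxa1 and of 8 marker lists (columns) on each array, with the y axis in units of the array's 75th percentile on a log scale, with squares for LysM-St18flox and circles for wild-type cells. The members and the mesothelial and fibroblast markers are lower, and the B cell and erythroid markers higher, on both LysM-St18flox arrays, while the macrophage markers lie close together.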

How the data were processed

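RNA of 4 samples was labelled with Cy3 and hybridised to 4 Agilent 1-colour arrays of 1 slide. The deposited spot intensity is, per the file headers, the Feature Extraction 11.0.1.1 processed signal (background-subtracted and spatially detrended, not normalized between arrays). The authors also deposited a table of log2 values for 25482 probes, with no stated normalization; the sorted values of its 4 columns differ by at most 0.000362 (log2), as after quantile normalization.

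Control spots and outlier-flagged spots were left out, spots of a probe were averaged as log2 values, and the 75th percentile of each array was then taken off (Python 3.11.15, numpy 2.4.6, pandas 2.3.3). Accessions were matched without version to the RefSeq table of GRCm38.p6: 32994 of 35886 RefSeq probes had 1 symbol. A gene was measured in a comparison when its brightest probe was well above background on both arrays. A bound compares the bright value with the dim array's lowest value well above background, or with the dim probe's value where that is higher. Members and lists were chosen with earlier results of these data known; the text names all members, St18, list genes past 2-fold (at most 6 per list and comparison, not every one) and list genes below background on all arrays. Csf3r was named after its values were seen. Replicates were not given, so no test was run. Alternatives were normexp correction (limma 3.58.1, offset 50, median signals), quantile normalization, median scaling, the deposited table, other probe choices, other filters and shorter lists. Sums without S100a8 and S100a9 and without Hdc were chosen after seeing the data. The calculation was tested on simulated data.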

Additional observations from a re-analysis of the deposited data

Results flagged for a closer look

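Some members had differences of opposite direction in the pairs compared, each larger than 0.11, which is 2 times the spot error (SD) of a difference. This cut covers spot error only. Between probes of a gene, the median SD was 0.272 for the genotype difference at 0 h and 0.319 for the LPS response in wild-type cells. Each opposition uses the wild-type 0 h array, which stood apart from the other arrays. None of these oppositions was tested, as each value comes from single arrays. The LPS response of Mmp8 was -0.24 in LysM-St18flox cells and 0.17 in wild-type cells, and that of Mmp9 was 0.32 and -0.42. The second Mmp9 probe gave 0.04 and -0.23. The genotype difference (LysM-St18flox minus wild-type) of Camp was -0.43 at 3 h and 0.37 at 0 h, that of Elane 0.12 and -0.62, that of Mpo 0.37 and -0.24, and that of Lyz2 -0.23 and 1.19. With normexp correction the 0 h value of Camp was -0.14, the same direction as at 3 h.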

How the results depend on the processing

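No member difference past 2-fold changed direction in the 5 to 8 alternative settings that measured it; 2 shorter lists bear on medians and counts only. Of 44 member differences past 2-fold, 36 stayed past it in every setting that measured them, and 8 did not in at least 1 (Cd177, Fpr1 and Sprr1a at 3 h, Pglyrp1 and Fpr2 at 0 h, Asprv1 with LPS in LysM-St18flox cells, Cd177 and Sprr1a with LPS in wild-type cells). The members' median genotype difference at 3 h (-0.78) was -0.59 with normexp correction, -0.44 in the deposited table, -0.43 with probes above background on all 4 arrays, -0.43 with the stricter filter, -0.65 without the stefins and -1.47 without the members that macrophages also express. The 14 lower members at 3 h became 9 in the deposited table and 8 with the stricter filter, which measured 25 and 21 members. At 0 h the single higher member became 2 without a background filter and 0 without the macrophage-shared members. For LPS in LysM-St18flox cells the median of 0.07 was 0.25 with median scaling, the 5 higher members became 8 without a background filter and 2 without the macrophage-shared members, and the 0 lower became 2 without the filter. In wild-type cells the 9 higher members became 5 with probes above background on all 4 arrays, 4 with the stricter filter and 5 without the macrophage-shared members, and the 2 lower became 1 with normexp correction, 1 with the stricter filter and 1 without the macrophage-shared members. Median scaling changed the share of higher genes among all 2-fold calls to 29.9% at 0 h (48.6% in the main setting) and to 65.4% for LPS in LysM-St18flox cells (51.4%). Over all genes, the 236 higher and 183 lower at 3 h became 137 and 96 with normexp correction, 155 and 85 with the stricter filter, and 992 and 1040 without a background filter. At 0 h, 378 and 399 became 231 and 251, 288 and 305, and 1461 and 1377 under the same settings. Beyond fewer genes tested, the cause was not tested. No paired analysis was possible because each group had 1 array.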
